A study of Arabidopsis thaliana with 30 samples.

Results

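The relatives of the light-harvesting antenna proteins that are not antenna subunits themselves were followed in young Arabidopsis thaliana leaves. They comprised the early light-inducible proteins ELIP1 (AT3G22840) and ELIP2 (AT4G14690), the single-helix proteins OHP1 (AT5G02120) and OHP2 (AT1G34000), LIL3:1 (AT4G17600) and LIL3:2 (AT5G47110), the stress-enhanced proteins SEP1 (AT4G34190) and SEP2 (AT2G21970), which are not the floral SEPALLATA genes of the same abbreviation, and PSBS (AT1G44575). Members were chosen by locus identifier, and all 9 were measured, each by a single probe set, among 29920 loci and 30237 probe sets on the array.

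These proteins have membrane helices related to those of the antenna, but they serve to protect or build the photosynthetic apparatus and do not mainly collect light. ELIPs accumulate in thylakoids during greening and under excess light, where they are thought to hold free chlorophyll, and their transcription is known to depend on photoreceptors and the transcription factor HY5. OHP1 and OHP2 act together in the assembly of the photosystem II reaction centre, LIL3 proteins hold enzymes of chlorophyll synthesis at the membrane, and PSBS senses the acid lumen and switches on the dissipation of excess light as heat.

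All plants were Col-0, the standard wild-type accession, grown in vitro on MS, a mineral salt medium. The day had 16 h of light, the night 8 h, and the temperature was 22 °C. Total RNA came from leaf 3. A time course held 18 arrays, 3 biological repeats for each of 6 ages from day 8 to day 13 after stratification. A second experiment held 12 arrays, 3 for each of 4 groups. On day 8 seedlings were given norflurazon or MS without it. They were harvested after 24 h on day 9 or after 48 h on day 10. Norflurazon is a herbicide that blocks phytoene desaturase in carotenoid synthesis, so that chlorophyll loses its protection against light. The labels do not state the dose, and whether the repeats came from separate cultures is not given beyond the word biological.

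Values are log2 expression. The time course arrays had medians of 3.50 to 3.63 and the norflurazon arrays of 2.81 to 2.88, so levels are not compared between the experiments. Correlations between arrays of the same group were 0.976 to 0.987 in the former and 0.992 to 0.995 in the latter. Precision is limited by the 3 arrays per group. Each change is a difference of group means ± its limma standard error, and a gene was called at a Benjamini-Hochberg adjusted p under 0.05 over all 30237 probe sets.

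Over the time course the 9 genes parted into a pair that declined and 7 that rose. ELIP1 and ELIP2 fell from day 8 to day 13, while OHP1, OHP2, LIL3:1, LIL3:2, SEP1, SEP2 and PSBS rose. All 9 passed the limma F test across the 6 ages, which called 32.4% of all probe sets. In day 13 minus day 8, 7 members rose, where 13.9% of all probe sets did, and 2 fell, where 19.8% did. The median change was 1.05 over the members and 0.02 over all probe sets. In whole leaves, a smaller share of cells of a type and less RNA per cell cannot be told apart.

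**Figure D1:**
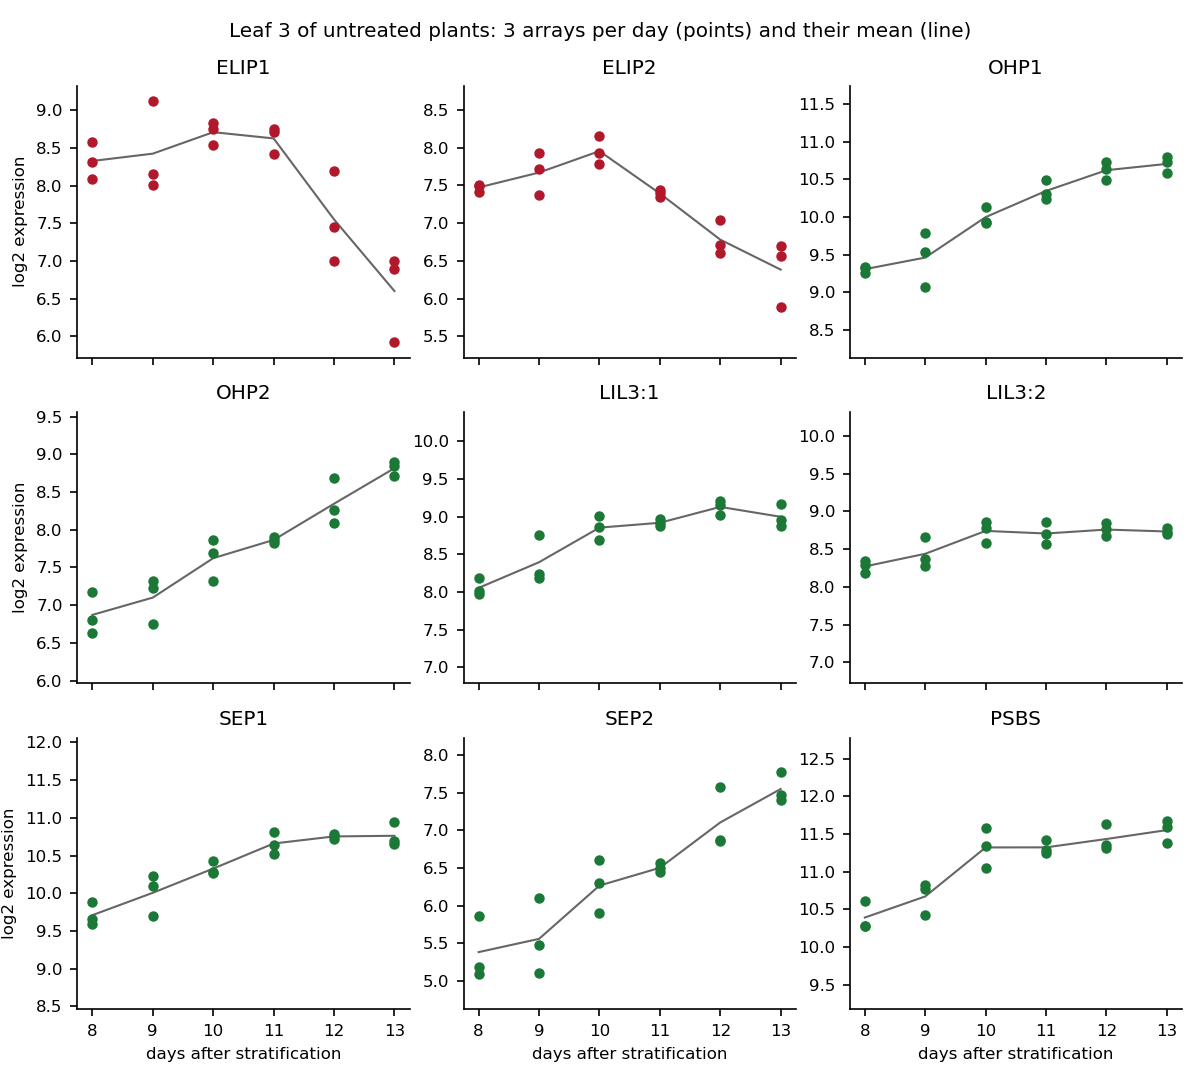
Log2 expression (vertical axis, the same span in each panel) of the 9 genes against days after stratification in untreated leaf 3. Points are single arrays, 3 per day, and lines join the means. The means of the ELIPs (red points) are lowest on day 13, whereas those of the other 7 genes (green points) are lowest on day 8.

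ELIP1 read 8.58, 8.31 and 8.08 on day 8, then 9.12, 8.15 and 8.00 on day 9, 8.54, 8.75 and 8.83 on day 10, and 8.41, 8.75 and 8.71 on day 11. It read 7.45, 8.20 and 7.0 on day 12 and 6.89, 5.92 and 6.99 on day 13. The arrays of days 8 to 11 overlapped between neighbouring ages in the order of levels, and the day 13 arrays lay below all others. The change from day 8 to day 13 was -1.73 ± 0.32, a 3.31-fold fall (adjusted p = 0.000366, limma). The last 2 intervals gave -1.07 ± 0.32 from day 11 to day 12 (adjusted p = 0.153) and -0.95 ± 0.32 from day 12 to day 13 (adjusted p = 0.168). The latter was -0.61 without day 13 replicate 2 and -0.63 without day 12 replicate 2. In both intervals the later arrays lay wholly below the earlier ones, but neither interval alone passed the limma test.

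ELIP2 read 7.51, 7.41 and 7.5 on day 8, 7.71, 7.92 and 7.38 on day 9, and 8.15, 7.78 and 7.93 on day 10. It then read 7.35, 7.43 and 7.40 on day 11, 6.60, 7.04 and 6.71 on day 12, and 6.70, 5.89 and 6.56 on day 13. Its highest mean, like that of ELIP1, fell on day 10, and its arrays of days 12 and 13 lay below those of every earlier age. It fell by 1.09 ± 0.19 from day 8 to day 13, 2.13-fold (adjusted p = 0.000152, limma). The step from day 10 to day 11 was -0.56 ± 0.19 (adjusted p = 0.560) and that from day 11 to day 12 was -0.61 ± 0.19 (adjusted p = 0.156), each with separate arrays and neither called.

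The OHP pair climbed through the whole period, and the order of the group means followed the order of the days for both. OHP1 read 9.34, 9.33 and 9.26 on day 8, 9.78, 9.53 and 9.07 on day 9, 9.93, 9.93 and 10.14 on day 10, 10.31, 10.24 and 10.49 on day 11, 10.49, 10.64 and 10.73 on day 12, and 10.80, 10.73 and 10.58 on day 13. Its arrays separated at the 3 steps between day 9 and day 12. It rose by 1.396 ± 0.143 from day 8 to day 13 (adjusted p = 6.89e-07, limma).

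OHP2 read 7.18, 6.80 and 6.63 on day 8, 7.33, 7.23 and 6.74 on day 9, 7.32, 7.86 and 7.69 on day 10, 7.86, 7.83 and 7.91 on day 11, 8.27, 8.08 and 8.69 on day 12, and 8.90, 8.85 and 8.71 on day 13. Its arrays overlapped between neighbouring ages up to day 11 and separated at the 2 later steps. The rise was 1.94 ± 0.19 (adjusted p = 3.14e-07, limma).

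LIL3:1, whose protein binds geranylgeranyl reductase, read 8.18, 8.01 and 7.97 on day 8, 8.24, 8.75 and 8.19 on day 9, 8.68, 8.87 and 9.01 on day 10, 8.97, 8.91 and 8.88 on day 11, 9.21, 9.02 and 9.16 on day 12, and 9.16, 8.87 and 8.96 on day 13. The day 8 arrays lay below all others, and those of days 10 and 11 overlapped, as did those of days 12 and 13. It rose by 0.94 ± 0.14 (adjusted p = 3.32e-05, limma). LIL3:2 rose least of the 7, by 0.46 ± 0.11 (adjusted p = 0.00363, limma), from 8.29, 8.34 and 8.18 on day 8 to 8.78, 8.72 and 8.71 on day 13. In the order of its 6 means no pair of neighbours had separate arrays.

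SEP1 and SEP2 are named for the rise of their transcripts under high light. SEP2 had the largest rise of the 9 genes. It read 5.87, 5.19 and 5.09 on day 8, 6.10, 5.48 and 5.11 on day 9, 5.91, 6.30 and 6.60 on day 10, 6.57, 6.49 and 6.45 on day 11, 6.87, 6.86 and 7.58 on day 12, and 7.77, 7.47 and 7.41 on day 13. The means followed the order of the days, with separate arrays at the step from day 11 to day 12 alone. Its change was 2.16 ± 0.26, or 4.48-fold (adjusted p = 3.89e-06, limma). SEP1 rose by 1.05 ± 0.13 (adjusted p = 7.33e-06, limma), from 9.88, 9.59 and 9.66 on day 8 to 10.94, 10.65 and 10.69 on day 13.

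PSBS gained most of its difference by day 10. It read 10.61, 10.28 and 10.28 on day 8, 10.82, 10.77 and 10.42 on day 9, 11.05, 11.58 and 11.34 on day 10, 11.29, 11.43 and 11.25 on day 11, 11.35, 11.31 and 11.64 on day 12, and 11.60, 11.38 and 11.68 on day 13. Arrays of days 10 to 13 overlapped from each age to the next, and all of them lay above those of days 8 and 9. It rose by 1.16 ± 0.15 from day 8 to day 13 (adjusted p = 9.86e-06, limma).

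Single-day steps gave few calls. From day 9 to day 10, OHP1 rose by 0.54 ± 0.14 (adjusted p = 0.0309) and PSBS by 0.65 ± 0.15 (adjusted p = 0.0166), 2 of 9 members, where limma called 2.37% of all probe sets higher. In all, 718 of 2232 calls of that step were higher, against 1106 of 2058 after another quantile normalization. Day 9 replicate 3 was the lowest array of its group for both genes, and without it no member was called in that step and the difference of OHP1 was 0.34. The OHP1 call was also lost without day 9 replicate 2 or day 10 replicate 2 or 3, and the PSBS call without day 10 replicate 2 or 3. LIL3:1 differed by 0.46 ± 0.14 in the same step (adjusted p = 0.0540). No member was called by limma in the other steps, with 2 members at an unadjusted p under 0.05 from day 8 to day 9, 3 from day 10 to day 11, 4 from day 11 to day 12 and 3 from day 12 to day 13. Of all probe sets, 12.3%, 7.13%, 11.7% and 13.9% had such a p in those steps. The shares of all probe sets called at an adjusted p were 1.28%, 0%, 0.695% and 1.54%.

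Members of a pair did not move by the same amount in the point values. The difference ELIP1 minus ELIP2 within an array averaged 0.85 ± 0.25 (SD, n = 3) on day 8 and 0.22 ± 0.20 on day 13. That of SEP1 minus SEP2 averaged 4.32 ± 0.29 on day 8 and 3.21 ± 0.06 on day 13. The change was -0.64 for the ELIPs, -0.55 for the OHPs, 0.48 for LIL3:1 minus LIL3:2 and -1.11 for the SEPs. In all 4 pairs the arrays of the 2 days did not overlap, yet 3 arrays against 3 cannot go below p = 0.1 in a two-sided exact permutation test, which is the value each pair gave (0.16 after adjustment over 8 such tests). How often other pairs of genes separated in this way was not counted, so the separation cannot be read as particular to these pairs. In the norflurazon experiment the same differences, averaged over both days, changed by -0.19, -0.07, 0.09 and 0.22, with exact permutation p-values of 0.205, 0.395, 0.435 and 0.075.

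Markers of leaf cell types changed over the same days. Mesophyll markers read above the group median in 50 of 50 combinations of probe set and group and epidermis markers in 30 of 30, while guard cell markers did so in 19 of 30, phloem and xylem markers in 21 of 30, flower organ markers in 0 of 30, root hair markers in 1 of 30 and shoot meristem markers in 1 of 50. From day 8 to day 13, 3 of 5 mesophyll probe sets rose (CA1, CA2 and RCA, with the list mean going from 9.26 to 12.5), as did 3 of 3 guard cell markers (2.94 to 4.56) and 3 of 3 phloem and xylem markers (3.23 to 6.29). The day 8 means of the latter 2 lists lay below the day 8 array median of 3.59. Of 3 epidermis markers 2 fell, ATML1 and PDF1, and the list mean went from 8.50 to 7.84. Among lists foreign to the leaf, 1 of 3 root hair markers rose, 1 of 3 flower organ markers fell and 0 of 5 shoot meristem probe sets were called. Of all probe sets, limma called 13.9% higher and 19.8% lower in this comparison. The part of these marker changes in the changes of the 9 genes was not tested.

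The control leaves of the norflurazon experiment changed between day 9 and day 10, and this bears on every comparison with the treated leaves. Of the 9 members, 5 were called by limma in day 10 minus day 9 on MS: LIL3:1 and PSBS rose, where 5.18% of all probe sets did, and ELIP1, ELIP2 and SEP2 fell, where 6.31% did. The 3 comparisons that share the MS day 9 group are this one, norflurazon against MS at day 9, and the interaction of norflurazon with the day. Their values are therefore given side by side and not as separate support for one another.

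**Figure D2:**
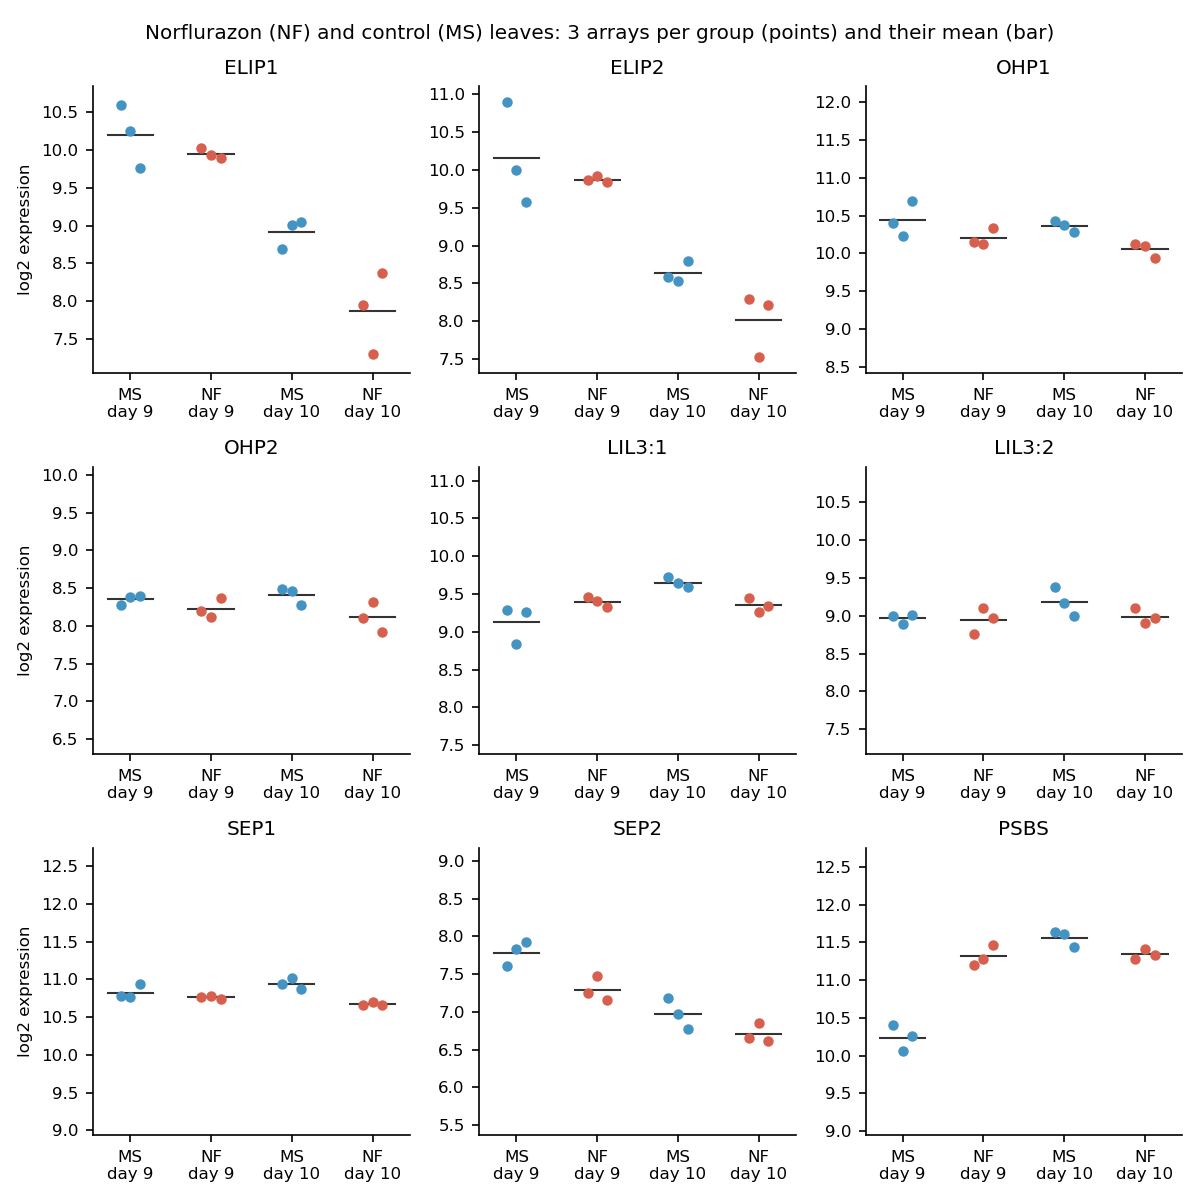
Log2 expression (vertical axis, the same span in each panel) of the 9 genes in leaves on MS (blue) and on norflurazon (NF, red) at days 9 and 10. Points are single arrays, 3 per group, and bars are means. PSBS on MS at day 9 lies apart from its other 3 groups, and the ELIPs are lower at day 10 than at day 9 with and without norflurazon.

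PSBS read 10.40, 10.06 and 10.26 on MS at day 9, 11.20, 11.28 and 11.47 on norflurazon at day 9, 11.64, 11.61 and 11.44 on MS at day 10, and 11.28, 11.41 and 11.33 on norflurazon at day 10. The MS day 9 arrays were the low ones, below every array of the other 3 groups. PSBS rose by 1.32 ± 0.10 from day 9 to day 10 on MS (adjusted p = 1.05e-05, limma). At day 9 it was higher on norflurazon by 1.08 ± 0.10, 2.11-fold (adjusted p = 0.000181, limma). At day 10 the difference was -0.22 ± 0.10 (adjusted p = 0.360), with the treated arrays below the controls. The effect of norflurazon differed between the days by -1.30 ± 0.14 (adjusted p = 0.00116, limma), and PSBS was the 1 member called in that interaction, where 0.688% of all probe sets were called lower. On norflurazon the day 10 mean was 0.03 above that of day 9, with overlapping arrays.

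SEP2 was the other member called at day 9. It read 7.60, 7.83 and 7.92 on MS and 7.25, 7.48 and 7.16 on norflurazon at day 9, then 7.18, 6.97 and 6.77 on MS and 6.65, 6.85 and 6.62 on norflurazon at day 10. The treated arrays lay below the controls at day 9 and overlapped them at day 10. It was lower on norflurazon by 0.49 on the log2 scale at day 9 (-0.49 ± 0.13, adjusted p = 0.0360, limma), and the call was lost without norflurazon replicate 1 or 3 or without MS replicate 2 or 3. At day 10 the difference was -0.27 ± 0.13 (adjusted p = 0.378). Limma thus called 1 member higher and 1 lower at day 9, where 3.6% and 3.83% of all probe sets were called.

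ELIP1 read 10.60, 10.25 and 9.77 on MS and 10.03, 9.93 and 9.89 on norflurazon at day 9. At day 10 it read 8.69, 9.01 and 9.05 on MS and 7.95, 7.30 and 8.38 on norflurazon. The groups overlapped at day 9, and at day 10 the treated arrays lay below the controls. The difference was -0.25 ± 0.25 at day 9 (adjusted p = 0.667) and -1.04 ± 0.25 at day 10 (adjusted p = 0.0831, limma), which is the largest difference of the members at day 10 and passed the threshold in none of the fits on all probe sets. With dim probe sets left out its adjusted p was 0.0453.

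ELIP2 read 10.90, 10.00 and 9.58 on MS and 9.86, 9.92 and 9.84 on norflurazon at day 9, and 8.59, 8.53 and 8.79 on MS and 8.29, 7.52 and 8.22 on norflurazon at day 10. As for ELIP1, the groups overlapped at day 9 and the treated arrays lay below the controls at day 10. The differences were -0.29 ± 0.28 (adjusted p = 0.665) and -0.63 ± 0.28 (adjusted p = 0.340). The day 10 difference was -0.39 without norflurazon replicate 2, the lowest array.

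Both ELIPs fell from day 9 to day 10 on MS. ELIP1 fell by 1.29 ± 0.25 (adjusted p = 0.00504) and ELIP2 fell by 1.52 ± 0.28 (adjusted p = 0.00372, limma). On norflurazon day 10 minus day 9 was -2.08 for ELIP1 and -1.86 for ELIP2, with separate arrays and no test. In the time course the same interval gave 0.28 ± 0.32 for ELIP1 and 0.28 ± 0.19 for ELIP2, with overlapping arrays (adjusted p = 0.712 and 0.444). SEP2 also differed in sign, at 0.71 ± 0.26 in the time course with overlapping arrays (adjusted p = 0.116, limma). On MS its difference was -0.81 ± 0.13 (adjusted p = 0.00129, limma), and on norflurazon -0.59, with separate arrays and no test. LIL3:1 and PSBS, the other members called on MS, had positive differences in the time course as well. The difference between the experiments was not tested, since their array medians differed and they were fitted apart.

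At day 10 limma called no member, where it called 0.771% of all probe sets. All 9 differences were negative, from -1.04 to -0.19, with a median of -0.29 against 0.00 over all probe sets, and 6 members had an unadjusted p under 0.05, as did 13.9% of all probe sets. The treated arrays lay wholly below the controls for ELIP1, ELIP2, OHP1, LIL3:1, SEP1 and PSBS, a pattern found in 8.96% of all probe sets. In the lists of related genes counted below, it was found in 9 of 16 antenna, 4 of 7 xanthophyll and 7 of 12 quenching genes. It was also found in 1 of 7 chlorophyll and assembly genes and 3 of 10 HY5 pathway genes. Positive differences numbered 0, 0, 1, 1 and 3 in these lists, in that order. The pattern was thus not particular to the 9 members. SEP1 read 10.93, 11.02 and 10.87 on MS and 10.67, 10.70 and 10.66 on norflurazon, a difference of -0.26 ± 0.07 (adjusted p = 0.109). No tissue marker was called in this comparison. The mesophyll markers CA1, CA2 and RCA differed by -0.95, -0.56 and -0.33 and the guard cell markers MYB60, KAT1 and FAMA by -0.28, -0.36 and -0.38, all with treated arrays below the controls. These guard cell markers read low, with norflurazon means of 3.00, 2.62 and 3.13 against a group median of 2.82. The epidermis markers PDF1 and FDH lay above the controls, by 0.23 and 0.32. The arrays of the RBCS1A probe sets and of the epidermis marker ATML1 overlapped between the groups. At day 9, 1 of 5 mesophyll probe sets was called, RCA, which was higher on norflurazon (0.60, adjusted p = 0.0466, limma). The means of CA1 and CA2 were also higher, and those of the RBCS1A probe sets were lower. Of 3 phloem and xylem markers 1 was called, SUC2, which was lower (-0.30, adjusted p = 0.0236, limma). The part of these markers in the differences of the 9 genes was not tested.

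LIL3:1 read 9.29, 8.84 and 9.26 on MS and 9.46, 9.41 and 9.32 on norflurazon at day 9, and 9.72, 9.64 and 9.59 on MS and 9.45, 9.27 and 9.35 on norflurazon at day 10. The treated arrays were the higher ones at day 9 and the lower ones at day 10. The differences were 0.27 ± 0.11 (adjusted p = 0.196) and -0.30 ± 0.11 (adjusted p = 0.241), and the interaction of -0.57 ± 0.16 missed the threshold (adjusted p = 0.0995, limma). Without MS replicate 2, the low array, the day 9 difference was 0.125. OHP1, OHP2 and LIL3:2 had differences of -0.24, -0.12 and -0.02 at day 9, with 95% intervals of -0.49 to 0.01, -0.36 to 0.11 and -0.26 to 0.22.

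**Figure D3:**
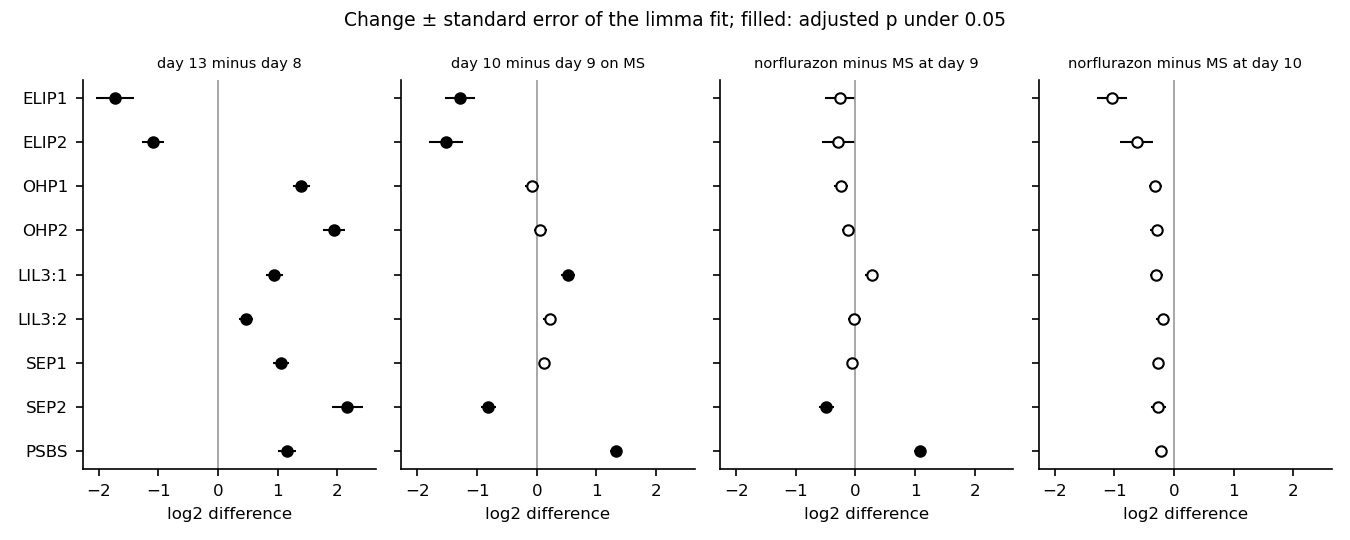
Log2 differences (horizontal axis) of the 9 genes in 4 comparisons, with the standard error of the limma fit as bars. Filled circles passed an adjusted p under 0.05: 9 in day 13 minus day 8, 5 in day 10 minus day 9 on MS, 2 for norflurazon at day 9 and 0 at day 10.

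Genes that act beside these proteins were counted by lists, whose median changes from day 8 to day 13 stand against 0.02 over all probe sets. In that comparison limma called 13.9% of all probe sets higher and 19.8% lower. All 7 measured genes of the xanthophyll cycle and lutein synthesis rose from day 8 to day 13 (median 1.19), with BCH2, a carotene hydroxylase, at 3.64 ± 0.20 and ZEP, the zeaxanthin epoxidase, at 1.75 ± 0.21. VDE1, the de-epoxidase that makes zeaxanthin in excess light, rose by 1.09 ± 0.19. Of 12 genes for quenching, state transitions and control of electron flow, 10 rose and 0 fell (median 1.31), among them PGRL1A of cyclic electron flow (1.999 ± 0.174) and ROQH1, which relaxes quenching (1.78 ± 0.19). Among 7 genes for chlorophyll synthesis and photosystem II assembly 6 rose (median 1.1), with HCF244, the partner of OHP1 and OHP2, at 2.17 ± 0.20 and the assembly factor HCF136 at 1.57 ± 0.16. All 16 measured antenna genes rose, with a median change of 1.32. The list held 21 antenna genes, and the rest were not measured here.

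The list of HY5 and the photoreceptor pathway was mixed, with 5 of 10 genes higher and 2 lower on day 13 (median 0.33). HY5, the bZIP factor of light signalling, fell by 1.29 ± 0.16 (adjusted p = 7.06e-06, limma), while its relative HYH stood at -0.03 ± 0.18 (adjusted p = 0.937). SIG5, a light-responsive plastid sigma factor, rose by 1.26 ± 0.19. Its day 8 mean lay below the array medians.

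**Figure D4:**
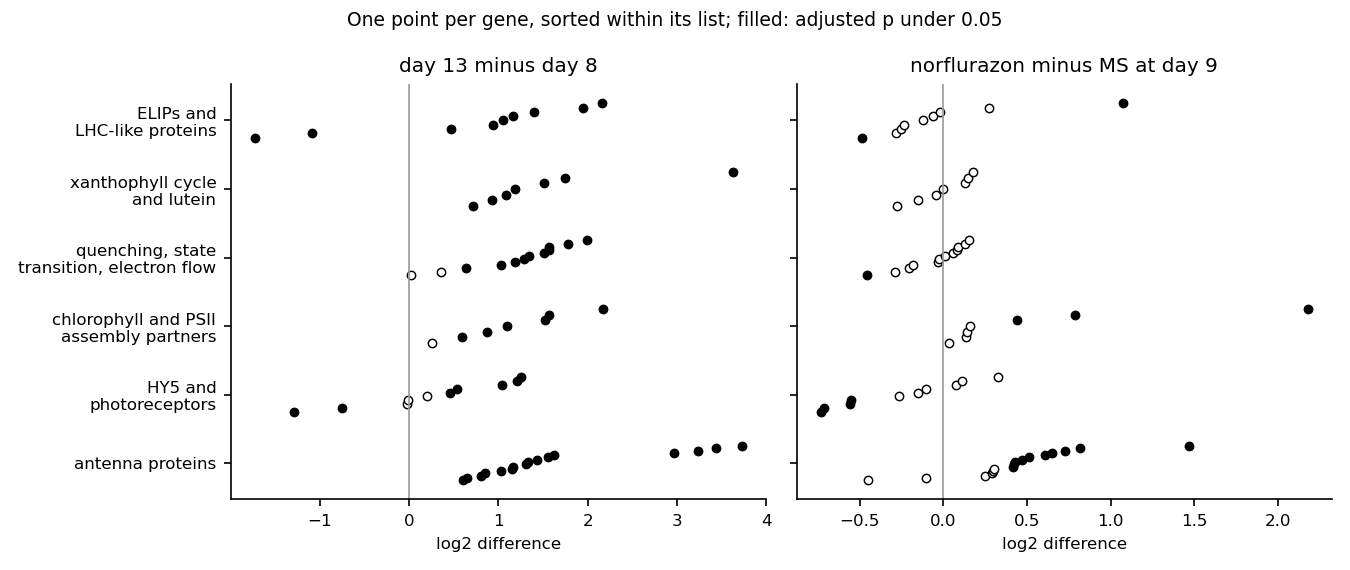
Log2 differences (horizontal axis) of the 9 genes and of 5 lists of related genes, 1 point per gene, for day 13 minus day 8 and for norflurazon minus MS at day 9. Filled points passed an adjusted p under 0.05. At day 13 the antenna, xanthophyll, quenching and chlorophyll lists lie wholly to the right of 0, and at day 9 the called antenna genes lie to the right and the called HY5 pathway genes to the left.

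At day 9 norflurazon left the 7 xanthophyll genes without a call by limma (1 at an unadjusted p under 0.05, median difference -0.01, as over all probe sets). VDE1 differed by -0.28 ± 0.11 (adjusted p = 0.171) and ZEP by 0.13 ± 0.11 (adjusted p = 0.625). In the quenching list 1 of 12 genes was called, PGR5 of cyclic electron flow, at -0.46 ± 0.10 (adjusted p = 0.0203), a call lost under 4 alternatives. Of the 7 chlorophyll and assembly genes 3 were higher (median 0.16), among them the protochlorophyllide reductases PORB (2.18 ± 0.18, adjusted p = 8.53e-05) and PORC (0.79 ± 0.11, adjusted p = 0.00134). Of 16 antenna genes 10 were higher and 0 lower (median 0.42), with LHCB1.4 at 1.47 ± 0.12 and LHCB4.2 at 0.82 ± 0.10. Of all probe sets, limma called 3.6% higher and 3.83% lower in this comparison.

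In the HY5 list 4 of 10 genes were lower on norflurazon at day 9 (median -0.21), where 3.83% of all probe sets were. The 4 were HY5, HYH, RUP1 and RUP2, the RUP proteins being repressors of the UV-B receptor. HY5 read 6.09, 6.58 and 6.49 on MS and 5.59, 5.67 and 5.70 on norflurazon at day 9, then 5.11, 5.04 and 4.85 on MS and 5.21, 5.32 and 5.10 on norflurazon at day 10. The MS day 9 arrays were the high ones. HY5 differed by -0.73 ± 0.12 at day 9 (adjusted p = 0.00328) and by 0.21 ± 0.12 at day 10 (adjusted p = 0.484), and the interaction was 0.94 ± 0.17 (adjusted p = 0.0152, limma). HYH differed by -0.55 ± 0.09 at day 9 (adjusted p = 0.00308) and RUP2 by -0.71 ± 0.09 (adjusted p = 0.000724).

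On MS from day 9 to day 10, 6 of the 10 HY5 pathway genes fell and 0 rose, with HY5 at -1.38 ± 0.12, HYH at -1.30 ± 0.09 and RUP2 at -1.16 ± 0.09. Of all probe sets, limma called 6.31% lower and 5.18% higher. Over the same interval 14 of 16 antenna genes rose and 1 fell, PORB rose by 3.02 ± 0.18 and VDE1 fell by 0.49 ± 0.11 (adjusted p = 0.0123, limma). The VDE1 call was lost without MS day 10 replicate 2 and in a fit of both experiments together. The mesophyll markers CA1, CA2 and RCA rose by 2.32 ± 0.37, 1.38 ± 0.31 and 1.19 ± 0.16 in those leaves, and their part in the rise of PSBS and LHCB1.4 was not tested. At day 10 limma called 0 genes of any of the 5 lists on norflurazon, where it called 0.771% of all probe sets. At an unadjusted p under 0.05 there were 3 of 7 xanthophyll genes, 8 of 12 quenching genes and 1 of 7 chlorophyll and assembly genes. The same held for 2 of 10 HY5 pathway genes and 10 of 16 antenna genes, and for 13.9% of all probe sets.

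**Figure D5:**
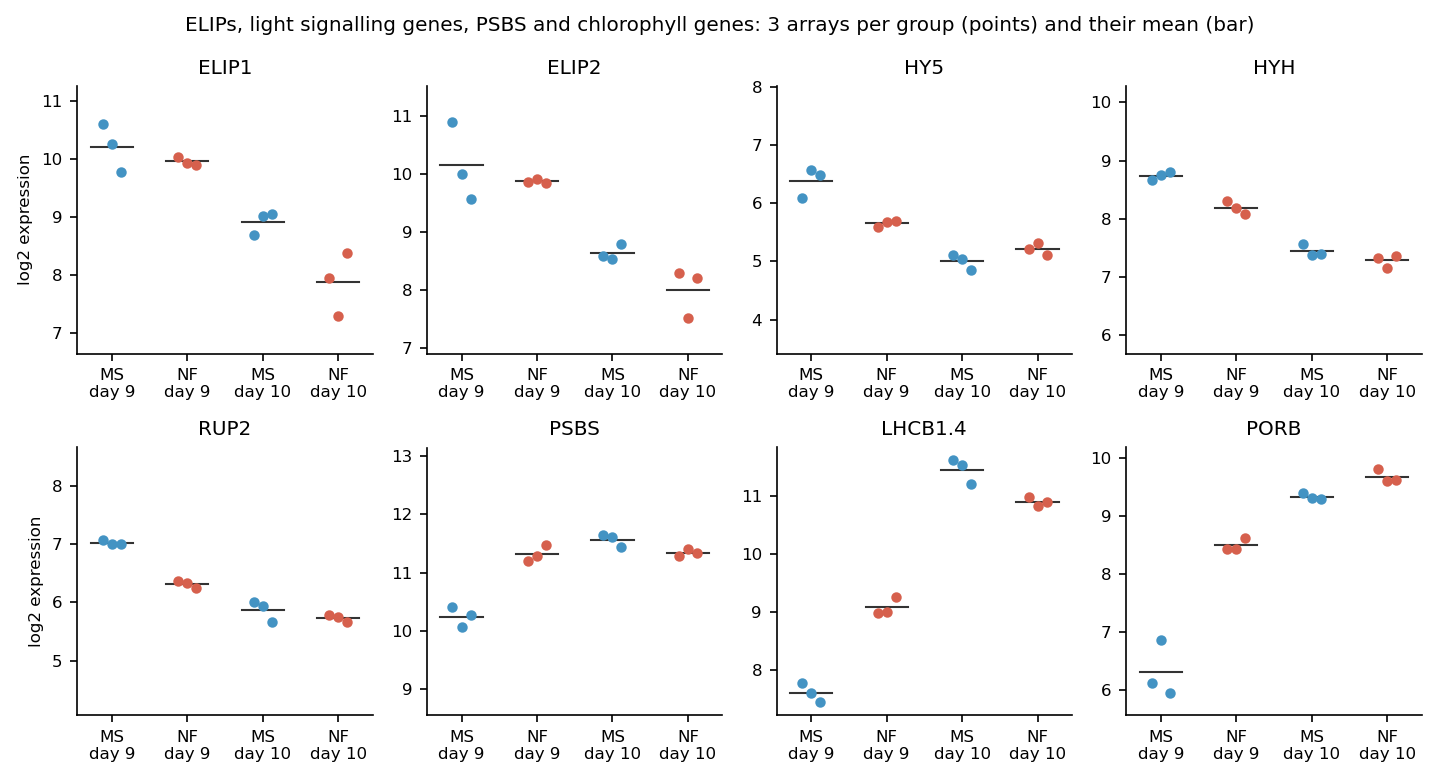
Log2 expression (vertical axis, the same span in each panel) of the ELIPs, PSBS and genes of light signalling and chlorophyll synthesis in leaves on MS (blue) and norflurazon (NF, red) at days 9 and 10. Points are single arrays, 3 per group, and bars are means. HY5 is highest and PSBS lowest on MS at day 9.

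Patterns were compared over the 30 arrays, each centred on the mean of its experiment. Only the 10513 of 30237 probe sets with a gene symbol were ranked by likeness, so genes without a symbol could be closer. Arrays of 1 group and experiment are not independent, so the coefficients are descriptions. ELIP1 and ELIP2 correlated with each other at 0.92, above any other gene with a symbol for either. The 7 other members correlated among themselves at 0.39 to 0.96 over 21 pairs, and with the ELIPs at -0.52 to -0.14 over 14 pairs. Next after its paralog, ELIP1 was most like G6PD4 (0.81) and CRY3 (0.78), and ELIP2 was most like FTM1 (0.84) and an HSP70 gene, AT3G12580 (0.79). ELIP2 and FTM1 correlated at 0.70 within the time course and at 0.91 within the norflurazon experiment.

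OHP1 was most like LBD21 (0.98), AGP21 (0.97) and MSRB6 (0.97), and OHP2 like GGT1 (0.98), PKS2 (0.97) and RPT2 (0.97). Within the norflurazon arrays alone, OHP2 correlated with these 3 genes at 0.73, 0.72 and 0.71. LIL3:1 was most like CCB3 (0.95), LEJ1 (0.94) and CRB (0.94), and LIL3:2 like APL1 (0.91), LOX2 (0.88) and GTR2 (0.88). SEP1 was most like Lhca5 (0.97), PnsL2 (0.96) and FdC2 (0.96), SEP2 like FTSH8, AFR and PLR1 (0.94 each), and PSBS like GS2, PETE1 and PSBQ-2 (0.97 each).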

How the data were processed

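AGRONOMICS1 tiling arrays were hybridised with leaf 3 RNA, each sample to its own array. The deposited values are log2 expression, made by the authors with RMA on TAIR9, per the submitters' processing notes. Not given in the sources used here are the RMA version, the probe definitions and the meaning of the probe set suffixes. PSBS has the suffix X, shared by 4325 probe sets, and the other 8 members have the suffix 0. Symbols came from RefSeq on TAIR10.1, used for names only, in which 29398 of the 29920 loci of the array were found.

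The experiments were fitted apart with limma 3.58.1 in R 4.3.3 (1 coefficient per group, eBayes), with 12 residual and 4.32 prior degrees of freedom in the time course and 8 and 3.77 in the norflurazon experiment. No filter or pseudocount was used. Benjamini-Hochberg adjustment ran over 30237 probe sets per contrast. The fits were tested on simulated data with normal noise, in which 50 probe sets changed by 0.5, 100 by 1 in either direction and 50 by 2. Of simulated log2 changes of 0.5, 32% to 52% were called, depending on the comparison, and of changes of 2, 98% to 100%. Changes smaller than 0.5 were not simulated. In the real data limma called 10192 probe sets in day 13 minus day 8. The adjustment depends on how many probe sets change, so the simulated shares do not carry over to that comparison.

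Members and lists were chosen with earlier results of these data known. Named genes are the members and the 2 called genes of each list with the largest change in day 13 minus day 8 or in norflurazon minus MS at 1 day. HY5, HYH, VDE1, ZEP, tissue markers, and the 3 genes with a symbol most like each member were also named. Alternatives were a repeated quantile normalization, no dim probe sets (mean below the experiment's median in every group), a trended robust prior, a replicate block, a joint fit, only the compared arrays, and leaving out each array.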

Additional observations from a re-analysis of the deposited data

Results flagged for a closer look

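The effect of norflurazon on PSBS differed between the days: norflurazon minus MS at day 10 less that at day 9 was -1.30 (limma, adjusted p = 0.00116), from 1.08 at day 9 and -0.22 at day 10. LIL3:1 was higher on norflurazon in every array at day 9 and lower in every array at day 10, a difference between the days of -0.57 that missed the threshold (limma, adjusted p = 0.0995). The day 9 difference went from 0.27 to 0.125 without MS replicate 2.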

How the results depend on the processing

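The 9 members called across the ages and in day 13 minus day 8, the 5 called between days on MS and the PSBS interaction kept their counts under each alternative run and without any 1 array. Of 440 alternatives to the 28 called member results, 425 kept the call and 15 lost it. The count for day 10 minus day 9 went from 2 to 5 after quantile normalization again, 5 in the joint fit and 0 with only the compared arrays, and ranged from 0 to 4 without 1 array (0 without day 9 replicate 3). That for norflurazon at day 9 went from 2 to 1 in the joint fit and with only the compared arrays, and ranged from 1 to 2 without 1 array: SEP2 lost its call without norflurazon replicate 1 or 3 or MS replicate 2 or 3. At day 10 it went from 0 to 1 without dim probe sets (ELIP1) and stayed at 0 without any 1 array.

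Whether the replicate numbers pair samples was not settled. With group means removed, correlations of same-numbered arrays ran from -0.25 to 0.17 among time course arrays. Among norflurazon experiment arrays they ran from -0.06 to 0.09. Differently numbered arrays were not compared, so these values cannot decide the question. The replicate block changed no call in 99 member results, and the called probe sets for norflurazon at day 10 went from 233 to 173. Over all probe sets, the count for day 10 minus day 9 was 2232, but 749 without day 9 replicate 3, 704 with only the compared arrays and 3880 in the joint fit. For norflurazon at day 10 it was 16 to 114 without 1 array, 466 without dim probe sets and 38 in the joint fit. For norflurazon at day 9 it was 2248, but 1416 without norflurazon replicate 2, 1397 in the joint fit and 1202 with only the compared arrays. For the steps from day 8 to 9, 11 to 12 and 12 to 13 it was 386, 210 and 465, with 115 to 805, 10 to 242 and 122 to 770 without 1 array, 16, 3 and 2 with only the compared arrays, and 1202, 795 and 1352 in the joint fit. The interaction's 589 became 359 to 649 without 1 array, 896 without dim probe sets and 263 in the joint fit. After quantile normalization again, the share of higher calls moved in 3 further comparisons, to 299 of 560 in day 9 minus day 8 (386 calls before), 113 of 323 for norflurazon at day 10 and 358 of 693 in the interaction (589 before).

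Without 1 array, the pair differences from day 8 to day 13 ranged from -0.77 to -0.53 (ELIPs), -0.69 to -0.45 (OHPs), 0.42 to 0.54 (LIL3) and -1.27 to -0.99 (SEPs), and those for norflurazon from -0.28 to -0.14, -0.13 to -0.02, 0.03 to 0.13 and 0.16 to 0.26. Changes that turned sign were all uncalled. For HYH in day 13 minus day 8 it was 0.0679 after quantile normalization again and -0.26 to 0.12 without 1 array. Without 1 array, ELIP1 ranged from -0.25 to 0.31 in day 9 minus day 8 and -0.17 to 0.0228 in day 11 minus day 10, OHP1 from -0.0059 to 0.35 in day 9 minus day 8, -0.20 to 0.0332 in the interaction and -0.18 to 0.049 between days on MS, SEP2 from -0.0939 to 0.42 in day 9 minus day 8, and ELIP2 from -0.58 to 0.085 on norflurazon at day 9. LIL3:2 ranged from -0.11 to 0.0341, -0.0163 to 0.13 and -0.0696 to 0.0161 in the last 3 steps and -0.10 to 0.0709 on norflurazon at day 9. In day 11 minus day 10, LIL3:1 ranged from -0.0204 to 0.14 and PSBS from -0.14 to 0.13, and SEP1 ranged from -0.081 to 0.0641 in day 13 minus day 12. The causes were not tested.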
